A study of Mus musculus with 23 samples.

Results

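Troponin is the calcium switch of the muscle thin filament, and its 8 genes in the mouse, Tnnc1, Tnnc2, Tnni1, Tnni2, Tnni3, Tnnt1, Tnnt2 and Tnnt3, were followed here through the differentiation of cultured myoblasts. They were taken by symbol from the deposited gene tables and are 8 of 32793 rows. All 8 passed the filter on low counts, which left 14187 genes for testing.

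Troponin sits on actin and tropomyosin as a complex of 3 subunits. Troponin C binds calcium, troponin I holds the filament off when calcium is low, and troponin T ties the complex to tropomyosin. Each subunit has versions named after the muscle in which they prevail in the adult: Tnnc2, Tnni2 and Tnnt3 encode the fast skeletal C, I and T, Tnni1 and Tnnt1 encode the slow skeletal I and T, Tnni3 and Tnnt2 encode the cardiac I and T, and Tnnc1 encodes the C of both slow skeletal and cardiac muscle. Embryonic skeletal muscle and cultured myotubes are known to use Tnnt2 and the slow forms before the adult pattern is set.

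The cells were C2C12, mouse myoblasts that divide while serum is plentiful and form multinucleate myotubes once it is withdrawn. Control cells, called WT here, and cells labelled Runx1KO, called labelled KO, were sampled on day 0, while growing in 20% fetal bovine serum, and on days 1, 3 and 6 of differentiation in 2% horse serum. Titles give day 6 where the series text gives day 5, and the titles were followed. Both genotypes share the line, the media and the poly(A) selection, and the labels do not say how the knockout was made, whether it is 1 clone, or whether replicates were separate cultures, so that p-values measure only the spread between these libraries. Of the 23 libraries, WT on day 0 had 2 and each of the other 7 groups had 3.

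Estimated counts per library ran from 22197606 to 23684077. Replicates differed with a chi-square per degree of freedom of 3.19 to 29.0, except for replicate 2 of the labelled KO group on day 1, which stood at 64.9 and 64.5 from its 2 partners. Runx1, the targeted gene, had more mRNA in libraries labelled KO than in WT on every day, by log2 fold changes (log2FC) of 0.51, 0.35, 0.54 and 1.02 on days 0, 1, 3 and 6. A loss of Runx1 mRNA is thus not seen in these counts, and where a deletion would lie is not given, so every genotype direction below is between libraries by their labels. Markers of the myotube state (Myog, Mymk, Myh3, Myh8, Ckm and Acta1) summed to 1.67 to 1.71 CPM (counts scaled to library size with TMM factors) in WT on day 0 and to 1431 to 1676 on day 6, against 1.90 to 2.24 and 8147 to 10017 in labelled KO. Myoblast markers (Pax7, Myf5, Cd34, Id1 and Id3) summed to 263 to 295 CPM in WT and 102 to 115 in labelled KO on day 6, but they did not move as one: Cd34, at 181 to 218 CPM in WT and at most 28.1 in labelled KO, was most of the gap, Pax7 and Myf5 were lower as well, and Id1 and Id3 were higher in labelled KO (CPM ratios of 4.17 and 2.82, adjusted p = 1.66e-10 and 5.51e-08 by edgeR). Smooth muscle markers (Myh11, Smtn, Acta2 and Cnn1) summed to 2677 to 3209 CPM in WT and 2010 to 2195 in labelled KO on day 6. Fat cell and endothelial markers summed to at most 0.988 CPM, and blood markers to at most 11.5, nearly all Cd68. The blood markers summed to 2.47 to 4.77 CPM in WT and 9.44 to 11.5 in labelled KO on day 6. In bulk RNA, fewer cells of a type and less RNA per cell cannot be told apart, and the part of these marker shifts in the troponin levels was not tested.

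The 8 genes lie in 5 places of the GRCm38 mouse genome (mm10, GENCODE annotation). Slow Tnni1 (chromosome 1, 135779434 to 135810989, plus strand) and cardiac Tnnt2 (chromosome 1, 135836354 to 135852260, plus strand) are 25.4 kb apart. Fast Tnni2 (chromosome 7, 142441808 to 142444410, plus strand) and fast Tnnt3 (chromosome 7, 142498836 to 142516009, plus strand) are 54.4 kb apart. Slow Tnnt1 (chromosome 7, 4504570 to 4516382, minus strand) and cardiac Tnni3 (chromosome 7, 4518305 to 4524229, minus strand) are 1.9 kb apart. The troponin C genes stand alone, Tnnc1 at chromosome 14, 31208312 to 31211729 on the plus strand, and Tnnc2 at chromosome 2, 164777161 to 164779967 on the minus strand. Of the exonic bases of Tnnc2, 592 of 800 lie opposite exons of the ubiquitin-conjugating enzyme gene Ube2c, and the sources used here do not say whether counting used strand. Ube2c had 879 to 5777 counts in every library, while Tnnc2 had 0 in both WT libraries on day 0. Tnni3 shares 86 of 2063 exonic bases with Dnaaf3 on the same strand, and its counts are uncertain for that reason as well as for being at most 19.

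Upstream sequence was at hand in the RefSeq promoter table (GRCm38.p6) for 6 of the 8 genes. The 250 bases before the start are shown for Tnnc1 and Tnnt2, because these were the pair whose change since growth medium differed between genotypes on both day 3 and day 6 by edgeR. Capitals mark 3 kinds of match searched on both strands: CAGCTG, an E-box of the kind that myogenic basic helix-loop-helix factors bind; CATTCC, the MCAT element known from the cardiac troponin T promoter; and TGTGGT or TGCGGT, core Runx motifs.
Tnnc1, chr14:31208062-31208311, plus strand: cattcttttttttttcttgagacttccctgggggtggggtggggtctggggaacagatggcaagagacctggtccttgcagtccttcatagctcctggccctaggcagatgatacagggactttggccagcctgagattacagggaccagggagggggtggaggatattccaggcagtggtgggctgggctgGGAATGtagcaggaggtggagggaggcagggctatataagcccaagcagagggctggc
Tnnt2, chr1:135836084-135836333, plus strand: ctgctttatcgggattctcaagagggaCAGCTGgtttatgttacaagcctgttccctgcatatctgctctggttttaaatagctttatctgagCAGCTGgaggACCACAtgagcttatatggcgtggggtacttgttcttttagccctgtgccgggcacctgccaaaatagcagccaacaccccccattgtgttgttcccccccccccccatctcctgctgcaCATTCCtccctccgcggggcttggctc
Counted from the start, the Tnnt2 window held CAGCTG at -223 and -157, a TGTGGT on the other strand at -147, and CATTCC at -27. The Tnnc1 window held a single match, CATTCC on the other strand at -58. In a window of Tnni1 that begins at 135799171 on chromosome 1, TGTGGT stood at -137 and CAGCTG at -68, and a second Tnni1 window, which begins at 135799261 and holds both of these again, had 1 more TGTGGT at -59. None of these 4 motifs was found in the windows of Tnnc2, Tnnt1 and Tnni3 or in a second window of Tnnt2 that begins at 135836739. Annotated exons covered all 250 bases of that second Tnnt2 window, 107 of Tnnc2, 84 of Tnni3 and 29 of Tnnt1. They covered 19 and 95 bases of the Tnni1 windows, which lie within the gene span given above, and 0 of the windows printed here. Of 32851 promoters of the same length, 13% held CAGCTG, 12.6% CATTCC, 14% TGTGGT and 5.1% TGCGGT. The looser E-box CANNTG, searched as well, was in all 8 windows of these 6 genes and in 66.2% of all promoters, and the MEF2 motif was in none of the 8 and in 2.9%. These are matches of letters, and no binding was measured.

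In growth medium Tnnt2 was the one troponin gene with substantial mRNA. Its level in TPM (a transcript abundance scaled to transcript length and depth) was 172 and 158 in the 2 WT libraries and 235, 220 and 234 in labelled KO. The other 7 genes had group means of at most 7.95 TPM on day 0. Tnnc1 was the next, at 8.10 and 7.80 TPM in WT and 6.09, 5.76 and 5.88 TPM in labelled KO. Tnnc2 was at 0 counts in both WT libraries and at 2, 4 and 1 counts in labelled KO, which is near or under the floor of 3 counts per library, so no fold is given. Tnnt2 therefore made up 99.0% ± 0.411 (SD, n = 2) of troponin T TPM in WT and 98.8% ± 0.242 (SD, n = 3) in labelled KO, while the I and C subunits it works with were at low levels.

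On the first day in low serum Tnnt2 fell, the only one of the 8 to do so. In WT it dropped to 72.7, 92.4 and 94.8 TPM, a log2FC of -1.11 ± 0.16 (SE, adjusted p = 2.23e-06 by edgeR), and in labelled KO to 141, 118 and 161 TPM, a log2FC of -0.80 ± 0.14 (adjusted p = 4.18e-05). No day 1 library overlapped the day 0 libraries of its genotype in CPM, but the share of all genes that did likewise is not given here. In WT, 6 of the other 7 genes had risen by day 1 and Tnnc1, at log2FC 0.27, did not pass by edgeR (adjusted p = 0.372), while limma called it on log2(TPM + 1) and log2(TPM + 0.1) (adjusted p = 0.0385 and 0.0272). Its day 1 libraries lay above both day 0 libraries, again with no share of all genes given. Of all genes tested, 54.7% passed between these days, 27.1% upward and 27.6% downward. In labelled KO all 7 others had risen, beside 52.3% of all genes, 27.2% upward.

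The order of onset did not sort by fast and slow class. Of the 6 abundant genes that started low, slow Tnnt1 was furthest on day 1, at 54.5, 53.5 and 75.1 TPM in WT, which is 40.6% of its mean WT level on day 6. Fast Tnnt3 followed with 31.2, 25.9 and 38.4 TPM, 15.9% of the day 6 level, and fast Tnni2 with 13.7, 14.95 and 16.4 TPM, 13.5%. Slow Tnni1 (9.20, 7.24 and 11.7 TPM, 3.49%), slow and cardiac Tnnc1 (11.96, 10.3 and 9.47 TPM, 3.27%) and fast Tnnc2 (1.49, 1.60 and 3.13 TPM, 1.91%) were last. Day 0 was not taken off: in WT it stood at 2.46% of the day 6 level for Tnnc1 and at 0% for Tnnc2. Counted as a rise since day 0, Tnnc1 would come after Tnnc2. Troponin T and fast troponin I mRNAs were thus ahead of both troponin C mRNAs on this scale. In labelled KO the day 1 shares of the day 6 level were 18.7% for Tnnt1, 4.45% for Tnnt3, 4.47% for Tnni2, 1.61% for Tnni1, 1.44% for Tnnc2 and 0.887% for Tnnc1, with Tnnt1 again first. Day 6 levels were higher in labelled KO, so these shares do not rank onset between genotypes. Mean day 1 TPM of each of the 6 was higher in labelled KO, with Tnnt1 at 76.4 against 61.0 in WT and libraries overlapping.

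Between day 1 and day 3 all but Tnni3 rose in both genotypes, 7 of 8 in each, where 11% of all genes rose in WT and 15.5% in labelled KO. Tnnc2 rose most in WT, by a log2FC of 5.67 ± 0.23 (SE, adjusted p = 3.52e-14), and Tnnc1 rose most in labelled KO, by 5.62 ± 0.17 (adjusted p = 4.83e-17). The smallest of the 7 rises was that of the early starter Tnnt1, 1.32 in WT and 1.97 in labelled KO. Relative to day 0 in WT, Tnnc2 was at least 4.51-fold higher on day 1, at least 230.5-fold on day 3 and at least 226.6-fold on day 6, taking 3 counts per library for the group at 0. In WT, Tnnt3 went from 2 and 4 counts on day 0 to 2236, 2337 and 2665 on day 3, and Tnni2 from 4 and 2 to 704, 715 and 842, with day 0 too near the floor for a fold.

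**Figure D1:**
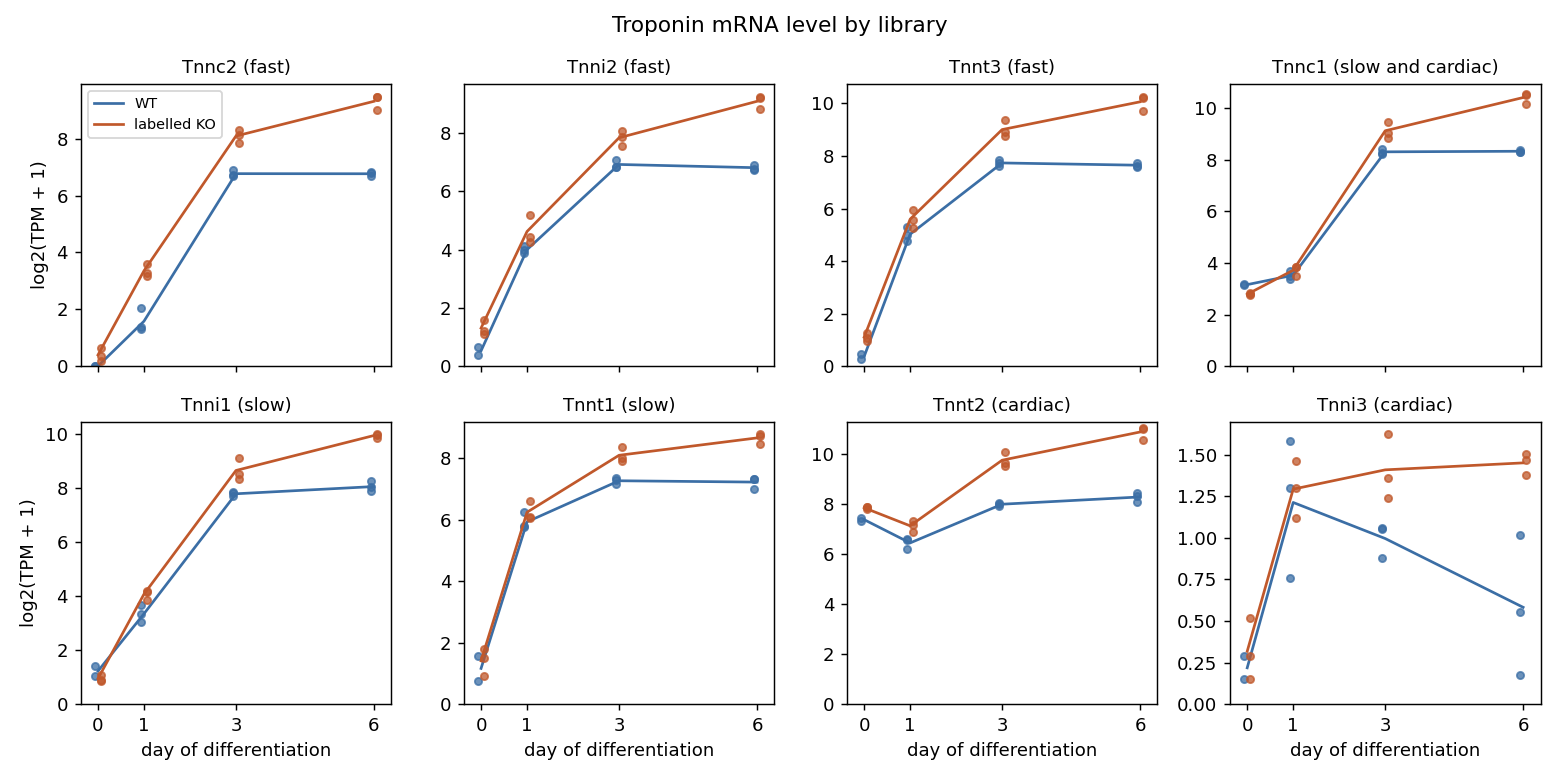
Level of each troponin gene as log2(TPM + 1) against the day of differentiation, with each point a library and lines through group means. Each panel has its own vertical scale, that of Tnni3 being for values of at most 2.08 TPM. WT lines of all but Tnni3 run nearly level from day 3, Tnnt2 dips on day 1, and the libraries labelled KO lie above WT on day 6 in every panel.

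After day 3 no further rise was called in WT. None of the 8 genes passed the test between day 3 and day 6 in edgeR, DESeq2 or limma on either TPM scale, and 0 had an unadjusted p under 0.05 in edgeR, while 9.79% of all genes were called. The log2FC ran from -0.83 (Tnni3, on 1 to 9 counts) to 0.26 (Tnni1 and Tnnt2), and the SE of the 7 abundant genes was 0.13 to 0.17. Tnnc1, the flattest, had 301, 308 and 346 TPM on day 3 and 336, 314 and 319 TPM on day 6. Tnni1 ran from 210 to 229 TPM on day 3 and from 238 to 304 on day 6. Tnnt2 ran from 242 to 263 TPM on day 3 and from 271 to 345 on day 6. In labelled KO, 7 of 8 rose again, where 20.2% of all genes rose and 21.2% fell. In CPM, 6 of them rose 2.08-fold (Tnnt3) to 2.38-fold (Tnnc1), and Tnnt1 rose 1.45-fold (log2FC 0.54 ± 0.16 SE, adjusted p = 0.0107). The call for Tnnt1 was lost without replicate 2 of day 3 (adjusted p = 0.0689) and without replicate 3 of day 6 (0.0588), both labelled KO, and by limma on log2(TPM + 0.1) (0.15). Tnni3 stood at a log2FC of 0.02 (adjusted p = 0.981).

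**Figure D2:**
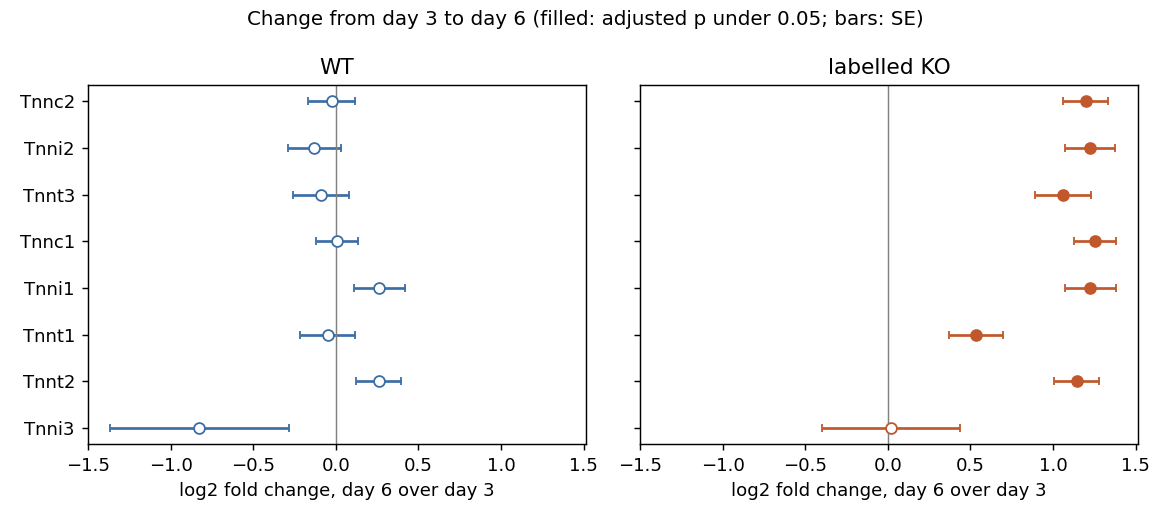
Log2 fold change of each troponin gene from day 3 to day 6 in WT (left) and labelled KO (right), with the standard error as bars and filled points for an adjusted p under 0.05. All 8 WT points are open, and 7 of the 8 labelled KO points are filled, between 0.54 and 1.25.

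That late step was itself compared between genotypes, by the difference of the 2 changes in the same model; this test was added after the values had been seen. In all, 6 genes rose more in labelled KO from day 3 to day 6: Tnni2 by 1.36 ± 0.22 (SE, log2, adjusted p = 2.83e-04), Tnnc1 by 1.25 ± 0.18 (9.92e-05), Tnnc2 by 1.22 ± 0.20 (2.83e-04), Tnnt3 by 1.15 ± 0.24 (2.67e-03), Tnni1 by 0.96 ± 0.22 (4.72e-03) and Tnnt2 by 0.88 ± 0.19 (3.54e-03). Tnni3 at 0.84 ± 0.68 and Tnnt1 at 0.58 ± 0.23 (adjusted p = 0.476 and 0.107) did not pass; Tnnt1 did without a filter (0.0189), in a fit of the groups compared alone (0.04) and without replicate 1 of labelled KO on day 3 (0.0431). Of all genes, 12.4% were called in this comparison, 6.36% in the upward direction. In the step before, from day 1 to day 3, 1 of 8 differed, Tnnt2, which rose more in labelled KO by 0.99 ± 0.20 (adjusted p = 2.41e-03), with 6.05% of all genes called. Without a filter Tnnc1, Tnnt1 and Tnnt3 were called too (adjusted p = 0.0185, 0.0237 and 0.00378), and by DESeq2 and by limma on log2(TPM + 1) Tnnc1 was (0.0338 and 0.0441). Without replicate 2 of labelled KO on day 1, Tnnt1 and Tnnt3 were added (0.0338 and 0.0209), without its replicate 2 on day 3, Tnnc1 and Tnnt3 (0.0222 and 0.0308), and without WT replicate 2 on day 1, Tnnt3 (0.0482). The 6 of the late step are the 3 fast genes with Tnnc1, Tnni1 and Tnnt2, and the classes were not compared by a test.

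The genotypes were then compared day by day. On day 0, 1 of the 8 was called, with 17.5% of all genes called: Tnnt2, at 61.0 and 58.9 CPM in WT and 89.8, 91.2 and 88.6 CPM in labelled KO, a log2FC of 0.58 ± 0.16 (SE, adjusted p = 0.0109). Its groups did not overlap, yet leaving out WT replicate 1 or 2 took the adjusted p to 0.0647 or 0.0931, and limma on log2(TPM + 1) and log2(TPM + 0.1) gave 0.0545 and 0.0503. On both of those scales limma called Tnni2 and Tnnt3 instead, and on log2(TPM + 0.1) also Tnnc2. Day 0 differences of the genes other than Tnnt2 and Tnnc1 rested on few counts.

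On day 1, 5 of 8 were higher in labelled KO and none was lower, against 42.2% of all genes called and 22.9% called higher. Fast Tnnc2 was furthest apart, at 0.425, 0.467 and 0.940 CPM in WT and 2.75, 3.14 and 2.42 CPM in labelled KO, a ratio of 4.54 and a log2FC of 2.18 ± 0.31 (SE, adjusted p = 7.97e-06). Tnnt2 (log2FC 0.90), Tnni1 (0.83), Tnni2 (0.72) and Tnnt3 (0.61) were also called, while Tnnt1 (0.35), Tnnc1 (0.25) and Tnni3 (0.12) were not. Without replicate 2 of labelled KO the count was 3, as Tnni2 and Tnnt3 no longer passed (log2FC 0.42 each, adjusted p = 0.151 and 0.117). Both also missed in a fit of the 2 groups alone (0.0505 and 0.0536), and Tnnt3 was also lost without WT replicate 2 (adjusted p = 0.0893). Tnnt1 was gained without WT replicate 3 (log2FC 0.54, adjusted p = 0.0239). In that labelled KO library Tnni2 was at 35.03 TPM against 18.4 and 20.4 in its partners.

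By day 3, 7 of 8 were higher in labelled KO, with 43.2% of all genes called and 24% higher. Tnnt2 led, at 242, 263 and 255 TPM in WT and 1082, 735 and 796 TPM in labelled KO, a log2FC of 1.89 ± 0.14 (SE, adjusted p = 2.12e-10). Next were Tnnc2 (1.49) and Tnnt3 (1.43), and Tnni2, Tnni1, Tnnt1 and Tnnc1 lay between 0.99 and 1.08. In labelled KO on this day, replicate 1 was the highest and replicate 2 the lowest of the 3 in TPM for all 7 genes; the lowest still lay above every WT library, also in CPM, as in 33.2% of all genes.

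On day 6 all 8 were higher in labelled KO, with 42.9% of all genes called and 22% higher. The 7 abundant genes had separated by ratios of 2.98 (Tnnt1) to 6.83 (Tnnt2) in CPM. Tnnt2 reached 1519, 2105 and 2066 TPM against 345, 317 and 271 in WT (log2FC 2.77 ± 0.14 SE, adjusted p = 2.45e-13). Tnnc1 reached 1155, 1521 and 1471 TPM against 336, 314 and 319 (log2FC 2.23 ± 0.13, adjusted p = 2.06e-12). Among the fast genes Tnnc2 was at 522, 707 and 709 TPM against 111, 102 and 112 (log2FC 2.71 ± 0.14, adjusted p = 8.23e-13), and Tnnt3 and Tnni2 had log2FC of 2.58 and 2.44. Slow Tnni1 at 2.02 and slow Tnnt1 at 1.58 were the smallest of these 7. In each of them the lowest labelled KO library lay above the highest WT library, as in 26.5% of all genes.

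**Figure D3:**
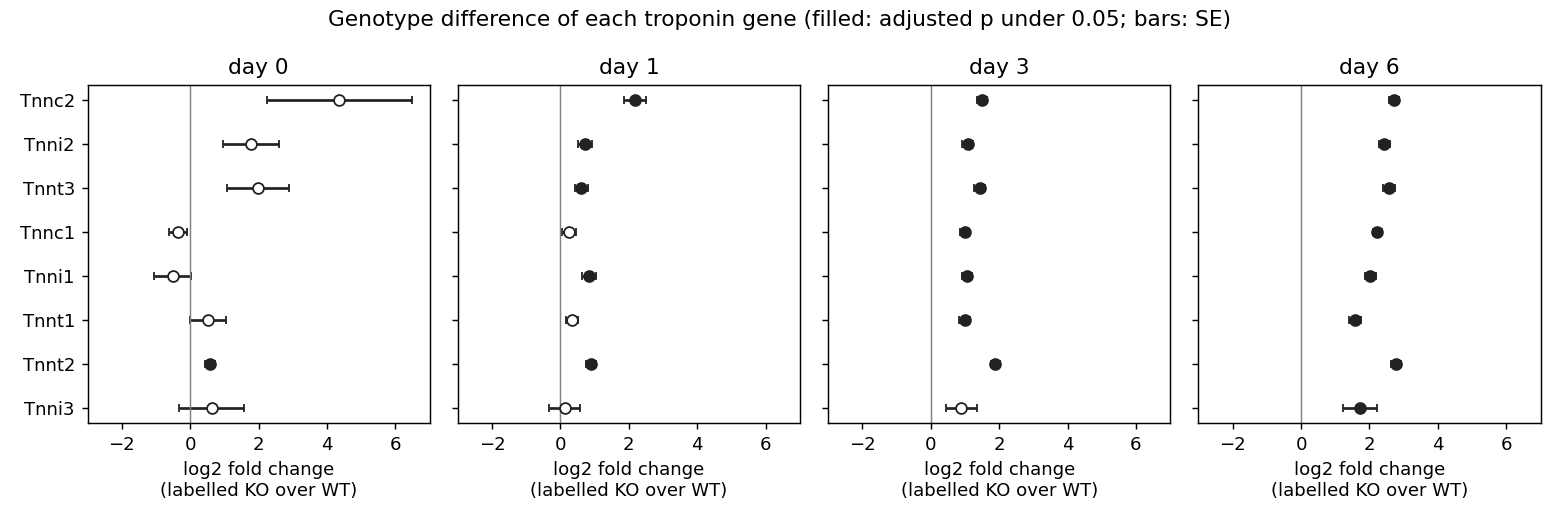
Log2 fold change of labelled KO over WT for each troponin gene on days 0, 1, 3 and 6, with the standard error as bars and filled points for an adjusted p under 0.05. Filled points number 1, 5, 7 and 8 from left to right; the day 0 value of Tnnc2 is fitted against a group at 0 counts and is no measure of size.

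The change since day 0 was also compared between genotypes, as part of the design. On day 1 none of the 8 differed by edgeR (1 had an unadjusted p under 0.05, and DESeq2 called 1 and limma 2 or 1, by pseudocount), with 3.95% of all genes called. On day 3, 2 of 8 had risen more in labelled KO, Tnnc1 by 1.35 ± 0.29 (SE, log2, adjusted p = 3.26e-03) and Tnnt2 by 1.31 ± 0.20 (adjusted p = 1.14e-04), with 10.7% of all genes called, 6.65% upward. On day 6, 3 of 8 had, Tnnc1 by 2.60 ± 0.30 (adjusted p = 1.34e-06), Tnni1 by 2.53 ± 0.59 (adjusted p = 4.63e-03) and Tnnt2 by 2.19 ± 0.20 (adjusted p = 6.48e-08), with 13% called, 7.54% upward. Without WT replicate 1 of day 0 the Tnni1 value was 2.24 with an adjusted p of 0.0920. On day 3 Tnni1, at 1.56 with an adjusted p of 0.0874 by edgeR, was called by DESeq2 (0.00559), by limma on log2(TPM + 1) and log2(TPM + 0.1) (0.00448 and 0.00361) and by edgeR without a filter (0.0187). On log2(TPM + 1) limma called 4 on day 3 and 7 on day 6. For the fast genes this comparison leans on day 0 counts near the floor.

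The genes named for the heart differed widely in level. Tnnt2 was the most abundant troponin gene of labelled KO on day 6, whereas Tnni3, the cardiac troponin I, never exceeded 2.08 TPM or 19 counts in any library. Tnni3 nonetheless rose on day 1 in WT (2 and 1 counts on day 0, then 17, 6 and 13; adjusted p = 2.33e-03 by edgeR, with day 0 too low for a fold), and on day 6 it stood at 4, 9 and 1 counts in WT and 15, 17 and 15 in labelled KO (log2FC 1.73 ± 0.50, adjusted p = 6.80e-03). Among 6 heart markers, Nkx2-5 and Gata4 were present at up to 26.9 and 26.3 CPM, Tbx5, Nppa and Myl7 had at most 4 counts, and Myh6 at most 19. The summed level of the 6 was 26.3 to 52.9 CPM over all libraries, 31.95 to 42.8 in WT and 41.5 to 47.2 in labelled KO on day 6. On that day Gata4 was higher in labelled KO (log2FC 0.66, adjusted p = 4.06e-05), as was Myh6 (2, 0 and 1 counts in WT and 18, 16 and 19 in labelled KO, adjusted p = 1.31e-04), and Nkx2-5 was not (log2FC -0.10, adjusted p = 0.713).

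Which version of each subunit prevailed was read from TPM, as the percentage of the subunit's total. For troponin C the total was 427 ± 34.1 TPM on day 3 and 431 ± 15.4 on day 6 in WT (SD, n = 3), and 845 ± 166 and 2028 ± 305 in labelled KO. For troponin T the totals on day 6 were 661 ± 32.9 in WT and 3388 ± 585 in labelled KO, and for troponin I 380 ± 39.7 and 1545 ± 134. Within these, slow and cardiac Tnnc1 outweighed fast Tnnc2, slow Tnni1 outweighed fast Tnni2 from day 3, and Tnnt2 was the largest share of troponin T in both genotypes.

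The fast share of troponin C was higher in labelled KO on each day. On day 1 it was 11.1, 13.5 and 24.8% in WT and 39.6, 45.7 and 44.0% in labelled KO. On day 3 the means were 25.5% ± 0.484 and 32.8% ± 1.77, and on day 6 25.1% ± 0.743 and 31.8% ± 0.703 (SD, n = 3), with no overlap on any day. The mean difference over the 3 days was 13.5 percentage points, with p = 0.00025 in an exact two-sided permutation of genotype within days (8000 relabellings), the smallest they can give, and 0.00075 adjusted over 3 shares. The difference was 26.6 points on day 1, resting on 10, 11 and 22 counts of Tnnc2 in WT, 7.34 on day 3 and 6.67 on day 6. On day 1 Tnnc1 did not pass the test between genotypes and was 11.96, 10.3 and 9.47 TPM in WT and 13.2, 13.3 and 10.2 TPM in labelled KO.

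For troponin I the fast share fell in both genotypes as Tnni1 came up, from 58.7% ± 5.80 on day 1 to 35.1% ± 1.71 and 29.4% ± 1.58 in WT and from 57.3% ± 10.9 to 36.0% ± 3.06 and 35.4% ± 2.72 in labelled KO (SD, n = 3). The difference over days was 1.85 points (exact permutation p = 0.463, adjusted 0.694). It was -1.40 on day 1 and 6.02 on day 6, where the lowest labelled KO library, 32.3%, lay above the highest WT library, 31.2%. Cardiac Tnni3 made up 0.147% of troponin I TPM in WT and 0.113% in labelled KO on day 6.

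Troponin T differed in its slow and cardiac parts. The fast share was 30.2% ± 0.908 in WT and 31.9% ± 0.862 in labelled KO on day 6 (SD, n = 3), and over days it differed by -0.356 points (exact permutation p = 0.74). That mean joins days of opposite sign: 0.363 points on day 1, -3.10 on day 3 and 1.66 on day 6. On day 3 the groups did not overlap, at 32.9 to 36.9% in WT and 30.5 to 31.7% in labelled KO. Tnnt1, the slow form, took 22.8% ± 3.78 in WT and 12.1% ± 0.892 in labelled KO on day 6, and 24.9% ± 1.97 and 16.7% ± 0.468 on day 3. Tnnt2, the cardiac form, took 47.0% ± 3.47 and 56.0% ± 0.125 on day 6, and 40.9% ± 0.481 and 52.2% ± 0.327 on day 3. These last 2 shares were tested after their values had been seen: Tnnt1 was lower by 7.98 points in labelled KO, a difference of -7.98 (exact permutation p = 0.00075, adjusted 0.00188 over 5 shares), and Tnnt2 higher by 8.33 points (p = 0.003, adjusted 0.005). Shares of a subunit make up a whole and the fast one hardly differed over days, so these 2 differences are not separate results. Groups did not overlap on days 3 and 6 and did on day 1. With only the fast and the slow gene in the denominator, the fast share of T was 8.94 points higher in labelled KO (adjusted exact permutation p = 0.00075), so what is said of the fast form depends on whether Tnnt2 is counted. In replicate 2 of labelled KO on day 1, Tnnt2 had 1.44 times the counts per TPM of other libraries, above 99.83% of 9372 genes there, so its share of 42.9% in that library rests on the TPM; the other 2 had 57.5 and 58.8%. Without that library the Tnnt2 difference was 10.03 points and the Tnnt1 difference -9.02.

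**Figure D4:**
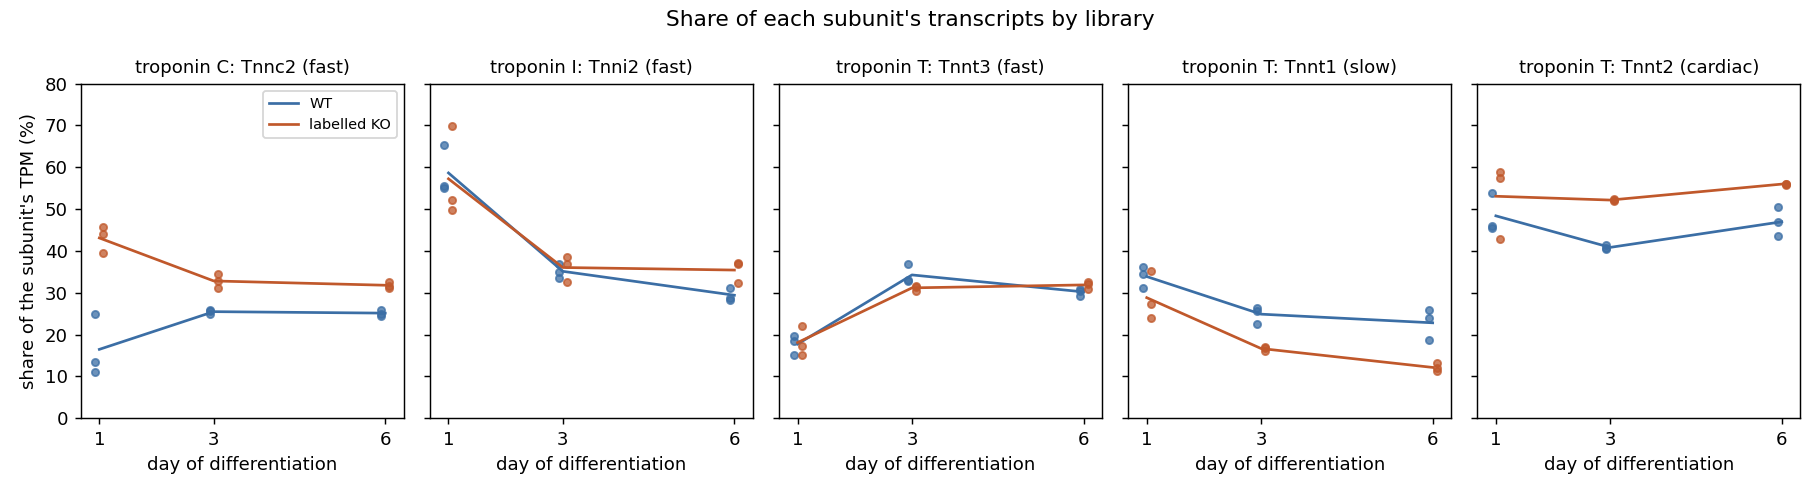
Percentage of a subunit's TPM from the gene named above each panel, against the day of differentiation, with each point a library and lines through group means. Labelled KO lies above WT for Tnnc2 on all days and for Tnnt2 on days 3 and 6, below WT for Tnnt1 on days 3 and 6, and mixed with WT for Tnni2 on days 1 and 3; Tnnt3 lies below WT on day 3 and overlaps it on days 1 and 6.

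Tnnc1 and Tnni1 ranked the 8 groups by mean TPM in 1 order, and Tnnc2, Tnni2, Tnnt1 and Tnnt3 shared another. For Tnnc1, Tnnc2, Tnni1, Tnni2, Tnnt1 and Tnnt3 the 4 highest groups were the same: labelled KO on day 6, labelled KO on day 3, then WT on days 3 and 6 in either order. For 5 of these 6 the 2 WT groups overlapped in TPM, and for Tnni1 they did not (210 to 229 on day 3 and 238 to 304 on day 6). Tnnt2 kept those top 4, and its WT groups on days 3 and 6 did not overlap in TPM either. Its order ended with the day 1 groups, WT on day 1 at 86.6 TPM lying below WT in growth medium at 165. For Tnni3 every neighbouring pair in the order overlapped.

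Genes with the most similar course were sought by Pearson's r of group mean log2 CPM over the 8 groups among 10889 genes with at least 5 CPM in some group, leaving out the 8 troponin genes and genes with provisional names. These r are descriptions, on points that share libraries. Tnnc2 was nearest to Mybph, a myosin-binding protein (r = 0.999), and Acta1, skeletal actin (0.998). Tnni1 was nearest to the fusion genes Mymk (0.998) and Mymx (0.997). Tnnt3 was nearest among these to Myog (0.997) and Rgma (0.996), and Tnni2 to Srpk3 (0.993) and Myog (0.992), where Myog encodes the transcription factor myogenin. Tnnc1 went with Nmrk2 (0.996) and Ankrd2 (0.991), Tnnt1 with Slc39a3 (0.994) and the pointed-end capper Tmod1 (0.993), and Tnnt2 with Mul1 (0.991) and Shroom3 (0.990). Tnni3 gave Pigp and Sap30 (0.984 each) on at most 19 counts. Between members, r was highest for Tnni2 with Tnnt3 (0.995), which are neighbours on chromosome 7. Pairs that are not neighbours came close, such as Tnnc2 with Tnni1 (0.991) and Tnnt1 with Tnnt3 (0.989). The value was 0.846 for the neighbours Tnnt1 and Tnni3 and 0.699 for the neighbours Tnni1 and Tnnt2.

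The partners of troponin on the thin filament were taken as a list of 14: actins, tropomyosins, nebulin and its relative Nrap, tropomodulins, leiomodins, Cfl2, Klhl40 and Klhl41. In WT, 12 of 14 were higher and 1, Tpm3, was lower on day 3 than on day 0, where 29.2% and 29.0% of all genes were. Between genotypes 7 were higher and 1 (Klhl41) lower in labelled KO on day 1, 9 higher on day 3 and 11 higher on day 6, with median log2FC of 0.39, 0.62 and 1.18, where the medians of all genes were 0.03, 0.04 and 0.00 and those of the 8 troponin genes 0.67, 1.07 and 2.33. Of all genes, 22.9% were higher on day 1, 24% on day 3 and 22% on day 6. Without replicate 2 of labelled KO the day 1 counts were 6 and 1, and the day 1 medians fell to 0.24 for the thin filament list and 0.42 for the troponin genes. Acta1 had 1153, 975 and 1001 CPM in WT and 6046, 7430 and 7381 in labelled KO on day 6, a log2FC of 2.74 ± 0.23 (SE, adjusted p = 1.09e-09). Actc1, the cardiac actin that embryonic skeletal muscle uses, had 60.6, 45.6 and 55.5 CPM in WT and 873, 1008 and 1039 in labelled KO (log2FC 4.17 ± 0.26, adjusted p = 6.87e-12). Neb, the giant ruler of the filament, had a log2FC of 1.93 and Tpm2, a tropomyosin, 1.14 on day 6. Tmod4 had 0.75 (adjusted p = 0.396) on under 1 CPM. From day 3 to day 6 in WT, Actc1 and Tpm3 fell and Lmod3 and Klhl41 rose, with 9.79% of all genes called. In labelled KO 8 rose and 1 fell, where 20.2% of all genes rose and 21.2% fell.

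Among 11 transcription factors known to act on muscle or troponin genes, 10 were tested. In labelled KO 2 were higher on day 1 (Myog and Six4), 6 higher and 1 lower on day 3, and 7 higher and 1 lower on day 6, Nfatc1 being the one lower on both days. The shares of all genes called higher were 22.9%, 24% and 22%, so the day 1 count is near that of genes in general. Myog had 168, 142 and 137 CPM in WT and 793, 956 and 977 in labelled KO on day 6, a log2FC of 2.61 ± 0.26 (SE, adjusted p = 1.78e-08), and it was apart by 1.59 already on day 1. Mef2c, a partner of the myogenic factors, was at 0 counts in the 3 WT libraries on day 3 and at 0.849 to 1.31 CPM in labelled KO, at least 8.75-fold higher, and had a log2FC of 3.81 on day 6. Tead4, of the family that binds MCAT elements, was 12.6, 10.3 and 13.1 CPM in WT and 55.6, 58.0 and 51.2 in labelled KO on day 6, a log2FC of 2.19 ± 0.17 (SE, adjusted p = 1.88e-10). Sox6, a repressor of slow-fibre genes, had at most 0.223 CPM in any library and was not tested.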

How the data were processed

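Poly(A) RNA-seq of 23 C2C12 libraries in 8 groups was used. The authors deposited estimated counts and TPM per gene symbol; Bowtie2, RSEM and mm10 are named in the submitters' processing notes, without versions. Annotation and strand handling are not given in the sources used here. The deposited counts are whole numbers. Main tests were edgeR 4.0.16 quasi-likelihood F-tests in R 4.3.3 (TMM, filterByExpr with a minimum count of 10 and a minimum total of 15, group means over 23 libraries), with Benjamini-Hochberg adjustment over 14187 genes in each of 19 contrasts and a threshold of 0.05. The SE came from log2FC and F. DESeq2 1.42.0, limma 3.58.1 on log2(TPM + 1) and log2(TPM + 0.1), RLE scaling, library size, other filters, fits on the groups compared, a replicate block and leaving out each library were alternatives; the fit was tested on simulated data. Log2 CPM for likeness used a prior count of 2. Shares of TPM were tested by exact permutation. The 8 members, the partner and regulator lists and the tests were chosen with earlier results of these data known. Named genes were the members, Runx1, listed partners and regulators, and the 2 most similar genes per member; partners and regulators named only as passing were chosen after their values were seen. Depth was 22197606 to 23684077 counts, and floors cover counting error only.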

Additional observations from a re-analysis of the deposited data

Results flagged for a closer look

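The following changes differed between the genotypes by a test of the difference itself (edgeR, adjusted p under 0.05), given as labelled KO minus WT on the log2 scale. From day 0 to day 3 these were Tnnc1 at 1.35 and Tnnt2 at 1.31. From day 0 to day 6 they were Tnnc1 at 2.60, Tnni1 at 2.53 and Tnnt2 at 2.19. From day 1 to day 3 Tnnt2 stood at 0.99 (6.05% of all genes called). From day 3 to day 6 they were Tnnc1 at 1.25, Tnnc2 at 1.22, Tnni1 at 0.96, Tnni2 at 1.36, Tnnt2 at 0.88 and Tnnt3 at 1.15. The 2 step comparisons were added after the values had been seen. Runx1 mRNA differed too, by 0.51 from day 0 to day 6 and by 0.48 from day 3 to day 6.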

How the results depend on the processing

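Counts of troponin genes called on day 3 and day 6 between genotypes, over time within a genotype and in the late step stayed within 1.5 times under every alternative run, and the 0 in the WT late step stayed 0. On day 0 the 1 gene called between genotypes became 2 without a filter, on log2(TPM + 1) and on the groups compared alone, and 3 by DESeq2 and on log2(TPM + 0.1); leaving out a library gave 0 to 1. Tnnt2 was not among those called on either TPM scale. On day 1 the 5 became 3 on the groups compared alone and 3 to 6 with a library left out. The change from day 0 to day 1 differed for 1 gene by DESeq2 and on log2(TPM + 0.1) and for 2 on log2(TPM + 1), against 0; on log2(TPM + 1) the count was 4 for day 3 and 7 for day 6, against 2 and 3. From day 1 to day 3, 1 became 4 without a filter, 2 by DESeq2 and on log2(TPM + 1), and 1 to 3 with a library left out. The fast share of troponin T turned to 0.198 points from CPM, to 8.94 with the fast and slow gene alone and to a log2 ratio of 0.561; with a library left out it ran from -1.01 to 0.143, and that of troponin I from -0.245 to 3.09.

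Signs turned for single genes where the value was small or day 0 near 0. In the change since day 0 on log2(TPM + 1), Tnnc2 was 1.38, 0.93 and 2.16 on days 1, 3 and 6, Tnnt1 0.067 on day 1, and Tnni2 0.14 and Tnnt3 0.53 on day 3; on log2(TPM + 0.1) Tnnc2 was 0.22 and 0.60 on days 1 and 6. With a library left out, ranges spanned 0 as follows. Between genotypes on day 1, Tnni3 ran from -0.21 to 0.44. From day 3 to day 6 in WT, Tnnc1 ran from -0.034 to 0.094, Tnnc2 from -0.064 to 0.053, Tnnt1 from -0.17 to 0.055 and Tnnt3 from -0.14 to 0.012, and in labelled KO Tnni3 from -0.11 to 0.22. In the difference between genotypes, Tnnt1 ran from -1.05 to 0.35 and Tnni3 from -1.03 to 0.10 on day 1, Tnni3 from -0.29 to 0.86 and Tnnt1 from -0.44 to 0.99 on day 3, Tnnt3 from -0.0039 to 0.98 on day 6, and Tnni1 from -0.039 to 0.39 between days 1 and 3. None of these had passed by edgeR with all libraries, but the 3 Tnnc2 values on log2(TPM + 1) passed there (adjusted p = 0.00425, 0.0228 and 3.15e-06). The cause was not tested.

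Equal replicate numbers did not pair the libraries: deviations of same-numbered libraries correlated at -0.24 to 0.116 over 38 pairs, 1 of them above 0.1. The replicate block left every count of troponin genes called as it was, 1, 5, 7 and 8 between genotypes, and the troponin C share at 13.5 points (exact permutation of paired signs, adjusted p = 0.0117).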
